A study of Mus musculus with 6 samples.

Results

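Proliferation markers were measured in tumor endothelial cells (TECs) sorted from subcutaneous B16-F10 tumors, which grow from a mouse melanoma line. A list of 10 transcripts of mitosis and DNA replication was matched by symbol to the 750 genes of the deposited table, and 8 of them had a row: Mki67, Ccnb1, Birc5, Cdc20, Cenpf, Melk, Ube2c and Rrm2. Top2a and Mcm2 had no row and were not analysed here. Of the 8 measured markers, 6 were among the 379 genes that the study kept above its low-signal filter, and Ccnb1 and Melk were not.

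The study asked how autophagy in endothelial cells shapes the immune response to melanoma, and profiled TECs for molecules that act on lymphocytes. Atg5BECKO mice carried Pdgfb-CreERT2, a tamoxifen-inducible recombinase driven by a promoter active in blood endothelial cells, together with Atg5 fl/fl alleles, and Cre-negative littermates were called WT. The line was bred from Rosa26 tdTomato reporter mice on a C57BL/6 background. Male and female mice of 7 to 14 weeks received tamoxifen for 5 days, and 250000 melanoma cells were injected under the skin. Tumors were taken on day 18, and live CD45-CD31+ cells (CD45-Ter119-CD31+ in the paper's text) were sorted after depletion of CD45+ cells. The WT group held 3 samples, numbered 1, 4 and 6 in the labels, and the Atg5BECKO group held another 3, numbered 2, 3 and 5. Whether a sample was 1 mouse or a pool is not given in the sources used here, and p-values therefore refer to the spread among these 6 samples, which may be partly technical. Atg5 itself has no row in the table, so its loss could not be checked in these values.

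Cells that commit to division first raise the transcripts of DNA replication and later, in G2 and M phase, those that assemble the spindle, segregate chromosomes and trigger the degradation of mitotic proteins. Most quiescent vessels hold few dividing endothelial cells, while angiogenic tumor vessels hold more, and transcripts such as Mki67 are used to mark them. In bulk RNA from sorted cells, fewer dividing cells and less RNA per dividing cell cannot be told apart.

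Many late cell cycle genes share short promoter elements: the cell cycle genes homology region (CHR), with the core TTTGAA or TTTAAA, which is bound by the MuvB complex, and the CCAAT box, which is bound by NF-Y. The promoters of 4 markers are shown, from the RefSeq windows on GRCm38.p6, because they hold both kinds of element within a short stretch upstream of the start (as does that of Cenpf, not printed). Each is printed 5′ to 3′ on the gene's strand, and capitals mark a CHR core or a CCAAT box on either strand (ATTGG and TTCAAA are the reverse complements).
Mki67: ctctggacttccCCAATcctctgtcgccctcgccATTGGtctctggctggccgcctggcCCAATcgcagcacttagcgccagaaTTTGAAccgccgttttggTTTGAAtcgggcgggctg
Cdc20: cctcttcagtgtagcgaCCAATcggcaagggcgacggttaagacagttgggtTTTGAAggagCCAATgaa
Ube2c: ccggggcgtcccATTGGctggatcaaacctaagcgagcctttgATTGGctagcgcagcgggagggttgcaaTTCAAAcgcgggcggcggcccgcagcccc
Ccnb1: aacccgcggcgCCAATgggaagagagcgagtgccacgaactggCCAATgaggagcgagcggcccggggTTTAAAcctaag
The Mki67 stretch is chr7:135716460-135716579 on the minus strand and runs from -200 to -81 relative to the start, with -1 as the last base before it. The Cdc20 stretch is chr4:118437344-118437413 on the minus strand (-70 to -1). The Ube2c stretch is chr2:164769829-164769928 on the plus strand (-100 to -1). The Ccnb1 stretch is chr13:100786517-100786596 on the minus strand (-110 to -31).

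All 8 measured markers matched a RefSeq window, each of 300 bases with 250 before the start and 50 after it. TTTGAA on either strand was found in 4 of the 8 (Mki67, Cdc20, Cenpf and Ube2c), and in 17.9% of the 32851 windows of all genes. TTTAAA, which is its own reverse complement, was found in 4 of 8 (Ccnb1, Birc5, Cenpf and Rrm2) and in 13.2% of all windows. CCAAT on either strand was found in 6 of 8, all but Birc5 and Melk, and in 37.4% of all windows. The exact E2F site letters TTTCGCGC, TTTGGCGC and GGCGGGAA were found on neither strand of the 8 windows, and occur in 0.323%, 0.514% and 2.19% of all windows. A match here describes letters in a window and not a bound site.

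The total count per sample, recovered from the deposited values, ran from 168454 to 244561 in 5 samples and was 76784 in WT replicate 6. The log2 normalized counts of the 371 low-signal genes had a median between 3.35 (WT replicate 4) and 4.54 (WT replicate 6). Endothelial identity genes were all 13 above the filter, with a summed normalized count of 32015 to 34041 in WT and 28713 to 42629 in Atg5BECKO samples, so the sorted cells carried the label's markers. The tested genes as a whole sat higher in Atg5BECKO TECs: 74.4% had a positive log2 fold change (Atg5BECKO minus WT throughout) and their median was 0.24. Without WT replicate 4 the share was 60.7% and the median 0.11. Centring each sample on its tested genes lowered every log2 fold change by 0.38.

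Mki67 encodes Ki-67, a protein that coats the surface of mitotic chromosomes and is absent from resting cells. Its log2 level was 7.22, 6.87 and 8.10 in WT replicates 1, 4 and 6, and 8.19, 7.13 and 8.83 in Atg5BECKO replicates 2, 3 and 5. The groups overlapped, since Atg5BECKO replicate 3 lay below WT replicates 1 and 6. The counts behind these levels ran from 136 to 479. In WT TECs the mean was 7.40 ± 0.64 (SD, n = 3) and in Atg5BECKO TECs 8.05 ± 0.86 (SD, n = 3). The log2 fold change of 0.65 had a 95% interval of -0.52 to 1.83 (limma adjusted p = 0.567, exact two-sided permutation p = 0.4, where 0.1 is the smallest that 3 against 3 samples allow). On the linear scale the ratio was 1.57, with an interval of 0.695 to 3.55. The spread over the 6 samples was wide: 91.6% of the tested genes had a smaller SD than the 0.77 of Mki67. Without Atg5BECKO replicate 3, the log2 fold change of Mki67 was 1.11 and past the study's thresholds (limma adjusted p = 0.345), and after centring of all samples it was 0.27.

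**Figure D1:**
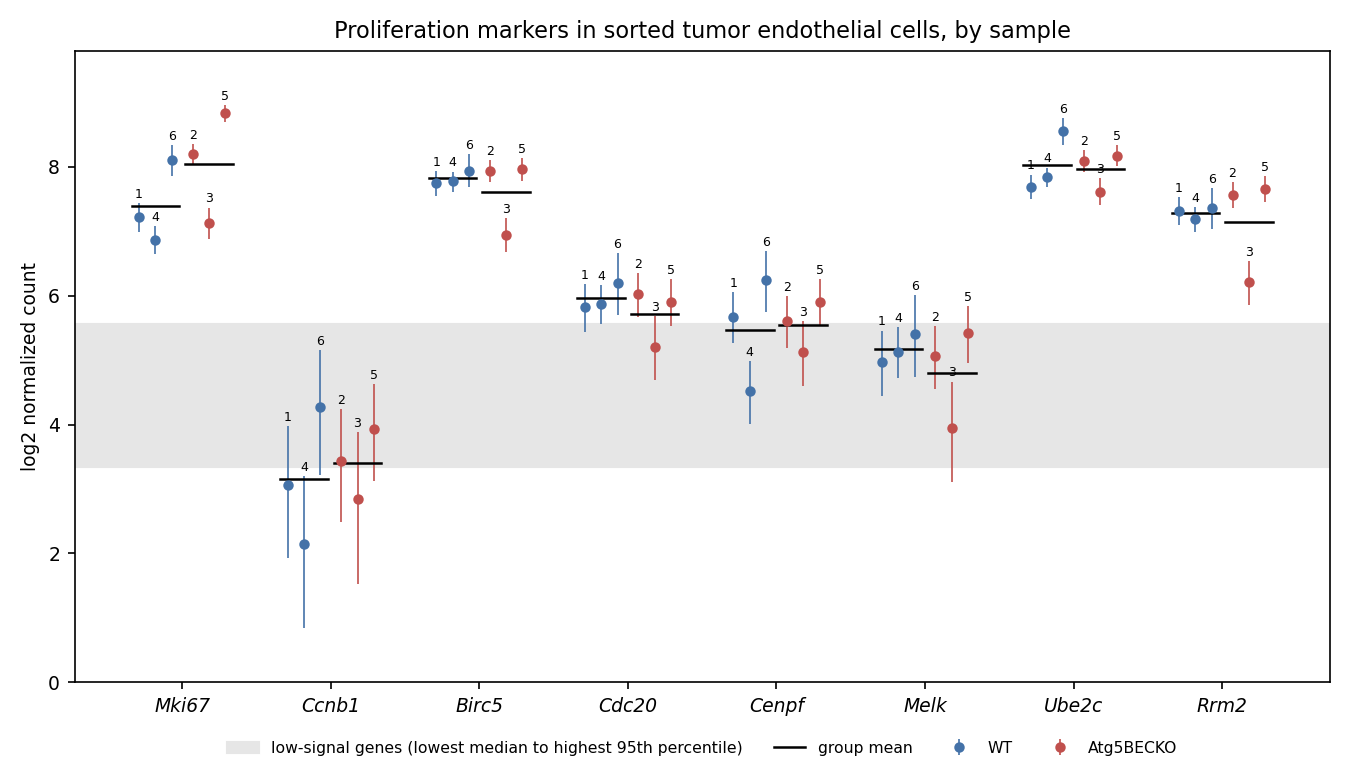
Log2 normalized count (y axis) of the 8 measured proliferation markers (x axis) in each WT (blue) and Atg5BECKO (red) sample, numbered by replicate. Vertical bars are exact Poisson 95% intervals, which cover counting error only, black lines are group means, and the grey band spans the levels of low-signal genes, from the lowest sample median to the highest 95th percentile of a sample. WT and Atg5BECKO samples overlap for every marker, and all 6 Ccnb1 points lie at or below 4.27.

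Entry into mitosis is driven by cyclin B1 (Ccnb1), the partner of the kinase Cdk1. Ccnb1 was barely counted, with 7 to 16 counts per sample. Its log2 level was 3.06, 2.15 and 4.27 in WT replicates 1, 4 and 6 and 3.43, 2.85 and 3.93 in Atg5BECKO replicates 2, 3 and 5. In every sample this lay below the median of the low-signal genes, at -1.19 to -0.17 relative to it, so a level above background was not detectable at this depth. Melk, a mitotic kinase of the AMPK-related family, stood nearer the filter. Log2 levels were 4.98, 5.13 and 5.41 in WT replicates 1, 4 and 6 and 5.06, 3.95 and 5.42 in Atg5BECKO replicates 2, 3 and 5. All but Atg5BECKO replicate 3 lay between 4.98 and 5.42, and the groups overlapped. In a fit over all 750 genes, the log2 fold change was 0.24 for Ccnb1 (95% interval -1.07 to 1.55, limma adjusted p = 0.983) and -0.36 for Melk (95% interval -1.32 to 0.60, limma adjusted p = 0.938).

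Cdc20 and Ube2c act together at the end of metaphase: Cdc20 activates the anaphase-promoting complex, and Ube2c is the ubiquitin-conjugating enzyme that serves it. The log2 level of Cdc20 was 5.82, 5.87 and 6.20 in WT replicates 1, 4 and 6 and 6.02, 5.21 and 5.90 in Atg5BECKO replicates 2, 3 and 5. Atg5BECKO replicate 3 was lowest, and the other 2 Atg5BECKO samples lay inside the WT range. The means were 5.96 ± 0.21 (SD, n = 3) in WT and 5.71 ± 0.44 (SD, n = 3) in Atg5BECKO TECs, a log2 fold change of -0.25 (95% interval -0.88 to 0.38, limma adjusted p = 0.701, exact permutation p = 0.6). The value was -0.0019 without Atg5BECKO replicate 3. Centring gave -0.63 (limma adjusted p = 0.313), with an unadjusted p under 0.05 but inside the fold threshold of 0.7. Ube2c was counted 191 to 360 times per sample. In log2 units it was at 7.69, 7.84 and 8.55 in WT replicates 1, 4 and 6 and 8.09, 7.62 and 8.17 in Atg5BECKO replicates 2, 3 and 5. WT replicate 6 was highest and Atg5BECKO replicate 3 lowest, with WT replicates 1 and 4 between the lowest and the middle Atg5BECKO sample. The log2 fold change of -0.07 had a 95% interval of -0.75 to 0.62 (limma adjusted p = 0.921, exact permutation p = 0.9), and was 0.20 without WT replicate 6 and 0.11 without Atg5BECKO replicate 3.

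Birc5 (survivin) targets the chromosomal passenger complex to centromeres and also belongs to the inhibitor of apoptosis family. Its log2 level was 7.75, 7.77 and 7.94 in WT replicates 1, 4 and 6 and 7.94, 6.95 and 7.96 in Atg5BECKO replicates 2, 3 and 5. The WT samples were close together, at 7.82 ± 0.11 (SD, n = 3), and the Atg5BECKO samples were not, at 7.61 ± 0.58 (SD, n = 3), because replicate 3 had 120 counts against 272 and 262 in replicates 2 and 5. The log2 fold change was -0.21 (95% interval -0.92 to 0.51, limma adjusted p = 0.795, exact permutation p = 0.9) and turned to 0.13 without Atg5BECKO replicate 3. Cenpf is a kinetochore protein that accumulates in G2. The log2 level was 5.67, 4.52 and 6.24 in WT replicates 1, 4 and 6 and 5.60, 5.13 and 5.90 in Atg5BECKO replicates 2, 3 and 5. Here the lowest sample was WT replicate 4, and all Atg5BECKO samples lay inside the WT range. The ends of that range, WT replicates 4 and 6, had 36 and 39 counts, with 1 count worth 0.636 and 1.94. In WT replicate 4 the level was at -0.02 relative to the 95th percentile of the low-signal genes. The log2 fold change of 0.07 had a 95% interval of -1.0 to 1.14 (limma adjusted p = 0.937, exact permutation p = 1.0). It was -0.31 after centring, -0.41 without WT replicate 4 and 0.45 without WT replicate 6.

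Rrm2 is the regulated small subunit of ribonucleotide reductase, which makes the deoxynucleotides for replication, and is the S phase marker of the set. Its log2 level was 7.31, 7.19 and 7.36 in WT replicates 1, 4 and 6 and 7.56, 6.21 and 7.66 in Atg5BECKO replicates 2, 3 and 5. Within the Atg5BECKO group, replicates 2 and 5 were above all WT samples and replicate 3 was below all of them. That replicate had 72 counts, and its log2 level had an exact Poisson 95% interval of 5.85 to 6.54, below those of replicates 2 (7.36 to 7.76) and 5 (7.46 to 7.85), so the gap was beyond counting error. The log2 fold change was -0.14 (95% interval -1.07 to 0.79, limma adjusted p = 0.865, exact permutation p = 1.0), and 0.32 without Atg5BECKO replicate 3 (limma adjusted p = 0.445).

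Of the 6 tested markers, 0 passed both of the study's thresholds (a log2 fold change of 0.7 or more in size and an unadjusted p under 0.05), beside 11.6% of all tested genes (10.8% higher and 0.792% lower in Atg5BECKO TECs). At a limma adjusted p under 0.05 the count was 0, beside 0% of all tested genes, and 0 markers had an unadjusted p under 0.05 (1 after centring, Cdc20), beside 16.1%. The methods' t-test and voom on the recovered counts also called 0 of the 6. In 0 of 6 markers did the groups separate without overlap, beside 27.7% of all tested genes. The log2 fold change was positive in 2 of the 6 and negative in 4, with a median of -0.10 beside 0.24 over all tested genes. Leaving out Atg5BECKO replicate 3 raised the count past the thresholds to 1, which was Mki67, and the median of the markers to 0.20. The 95% interval of each of the 6 markers reached beyond -0.7 or 0.7, so a difference of that size in at least one direction lay within the error of every marker.

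**Figure D2:**
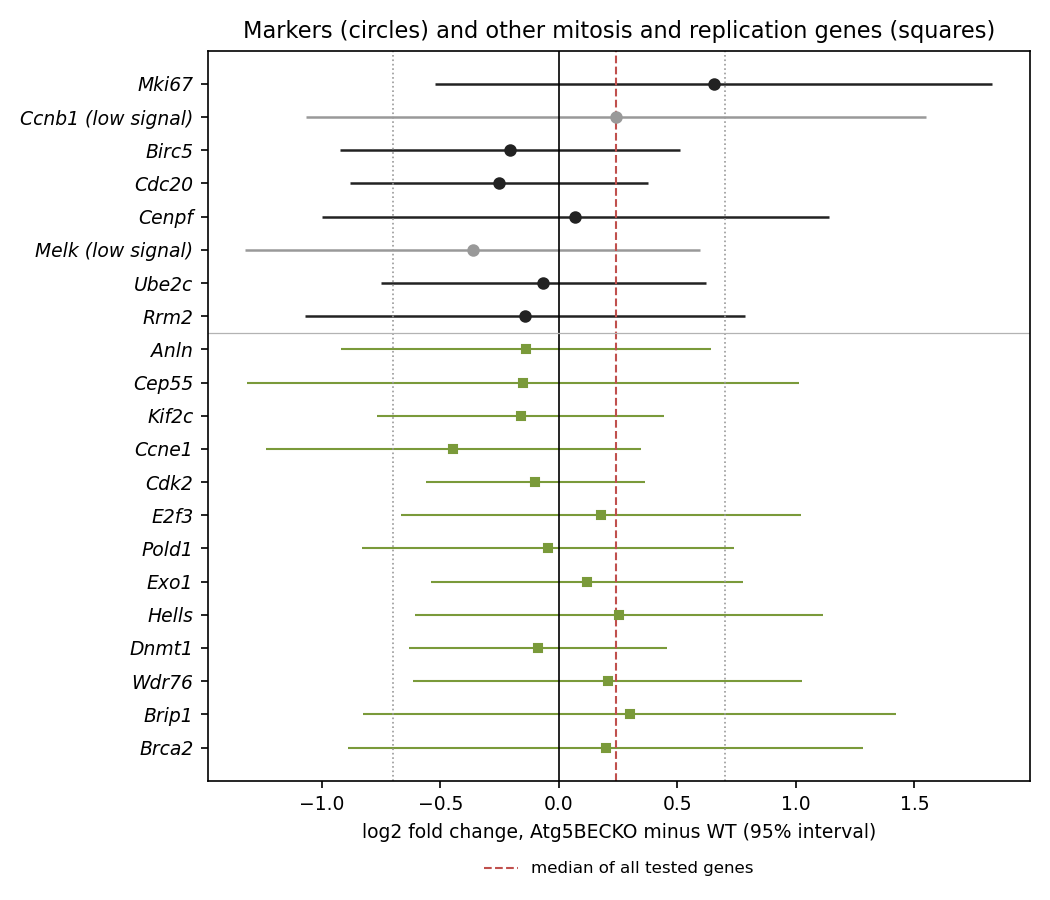
Log2 fold change, Atg5BECKO minus WT, with its 95% interval (x axis) for the 8 measured markers (circles, grey for the 2 low-signal ones, fitted over all 750 genes) and 13 other mitosis and replication genes (squares). Dotted lines are at -0.7 and 0.7 and the dashed line is the median of all tested genes, 0.24, and every interval crosses 0.

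Other genes of division did not pass the test either. In a list of 4 further mitosis and cytokinesis genes, 3 were tested and 0 passed the thresholds in either direction: Kif2c, a microtubule-depolymerizing kinesin (log2 fold change -0.16, 95% interval -0.77 to 0.45), Anln, the cytokinetic ring protein anillin (-0.14, -0.92 to 0.64), and Cep55, which organizes abscission (-0.15, -1.32 to 1.01). Their limma adjusted p ranged from 0.796 to 0.896. Of 16 replication and S phase genes, 11 were tested and 0 passed in either direction, with log2 fold changes from -0.45 to 0.30, a median of 0.12 and 6 of them positive. The lowest was Ccne1 (cyclin E1, which drives entry into S phase), at -0.45 (95% interval -1.24 to 0.35, limma adjusted p = 0.557). Brip1, a helicase at damaged forks, was highest at 0.30 (-0.83 to 1.42). Hells, a chromatin remodeler of replicating cells, was at 0.25, Wdr76 at 0.21, the transcription factor E2f3 at 0.18 and the kinase Cdk2 at -0.10, with limma adjusted p from 0.795 to 0.847. In the panel's own cell proliferation annotation, 31 tested genes are outside the marker set. Of these 0 passed the thresholds, 16 were positive and 15 negative, with a median of 0.04, and 6 separated the groups without overlap. Over all tested genes 11.6% passed, 74.4% were positive, the median was 0.24 and 27.7% separated the groups. No G1 control gene passed the thresholds among the 12 tested. Of these 12, 1 had an unadjusted p under 0.05, beside 16.1% of all tested genes, and 3 separated the groups without overlap.

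Across the 6 samples the markers moved together. Averaged over the 6 tested markers, the deviation from each gene's own mean was positive in WT replicate 6 (0.40) and in Atg5BECKO replicates 2 (0.24) and 5 (0.41). It was negative in WT replicates 1 (-0.09) and 4 (-0.32) and in Atg5BECKO replicate 3 (-0.63). High and low samples thus occurred in both groups. In Atg5BECKO replicate 3 every tested marker was below its average, by log2 values of -1.01 (Rrm2) to -0.38, and 4 of 6 had their lowest value there, as did 7 of the 14 other tested mitosis and replication genes. Of all tested genes 10.8% were lowest in that sample and 31.9% were highest in it. WT replicate 4 held the lowest value of Mki67 and Cenpf, of 6 of the 14 other mitosis and replication genes, and of 50.9% of all tested genes, with a mean deviation of all tested genes of -0.40. Relative to the mean of all tested genes, the markers were at -0.76 in Atg5BECKO replicate 3 and between -0.04 and 0.38 in the other samples.

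**Figure D3:**
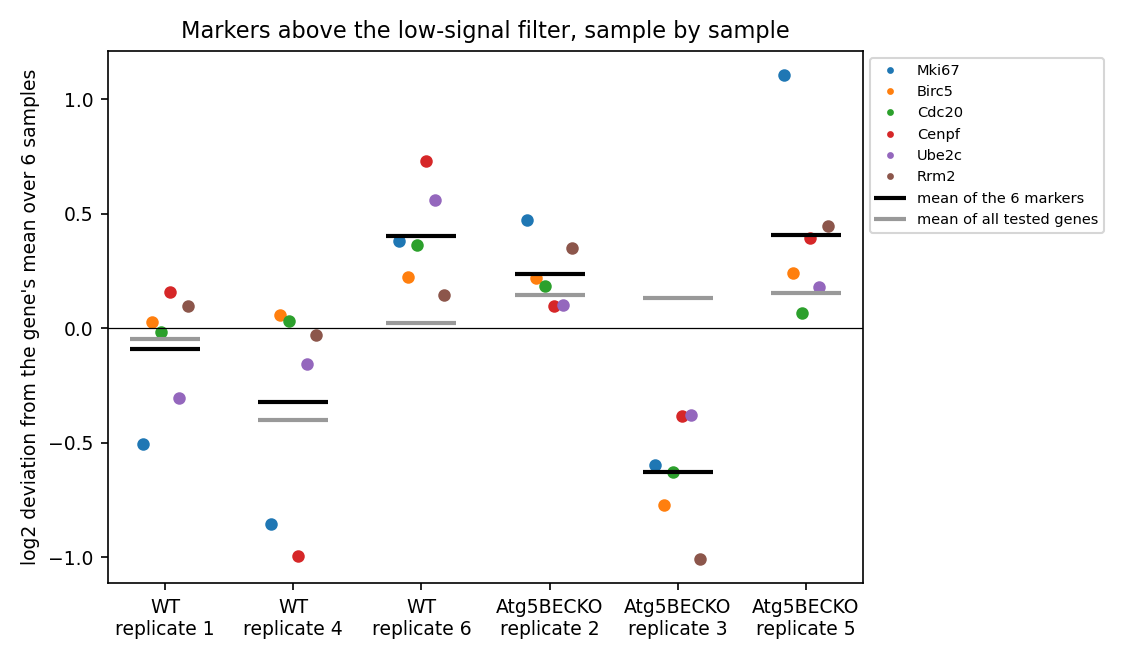
Log2 deviation of each tested marker from its own mean over the 6 samples (y axis) in each sample (x axis), with the mean of the 6 markers (black) and of all 379 tested genes (grey). All 6 markers lie below 0 in Atg5BECKO replicate 3 and above 0 in WT replicate 6 and Atg5BECKO replicates 2 and 5.

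Pearson r was computed for the 28 pairs of measured markers. It was positive in all 28, from 0.44 (Birc5 and Cenpf) to 0.98 (Birc5 and Rrm2), with a median of 0.69. Over the 15 pairs of tested markers the median was 0.68, beside 0.21 over the 71631 pairs of all tested genes. All values of a sample share 1 normalization factor, and the genes are not independent of each other. With each group's mean removed the median was 0.82 for the tested markers and 0.13 for all tested genes. Centring each sample gave 0.53 and 0.05.

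The closest pair was Birc5 and Rrm2, with r = 0.98 (exact permutation p = 0.00833, adjusted over 28 pairs p = 0.117) and Spearman rho = 0.89 (exact permutation p = 0.0333, adjusted p = 0.133). Next came Birc5 and Melk, with r = 0.97 and rho = 0.94. Ccnb1 and Cenpf had r = 0.96, but Ccnb1 was at background in all 6 samples, and its normalized values were highest where 1 count was worth most (1.94 in WT replicate 6) and lowest where it was worth least (0.636 in WT replicate 4), so its r values are not read as markers moving together. For Birc5 and Rrm2, r was 0.84 without the 2 samples farthest from the Birc5 median (Atg5BECKO replicate 3 and WT replicate 1). An unadjusted exact permutation p under 0.05 was reached by 7 pairs for r, of which 2 were among the 15 pairs of tested markers. The others held Ccnb1 or Melk, both under the filter. After Benjamini-Hochberg adjustment 0 of 28 passed, for r (lowest adjusted p = 0.117) or for rho (lowest adjusted p = 0.0933). Each pair was also taken without the 2 samples farthest from the median of its first gene, in the order in which the markers are listed above. The samples left out therefore differ between pairs, and the second gene could have picked others. In that form r stayed above 0 in 27 of 28 pairs, with a median of 0.77. Over the pairs of tested markers it stayed above 0 in 15 of 15, with a median of 0.74. Melk and Rrm2 went from 0.93 to -0.07, Cdc20 and Melk from 0.94 to 0.10 and Cdc20 and Cenpf from 0.50 to 0.19, so those relations rest on the samples left out. For Cdc20 and Rrm2, r fell from 0.88 to 0.15 without Atg5BECKO replicate 3 alone.

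**Figure D4:**
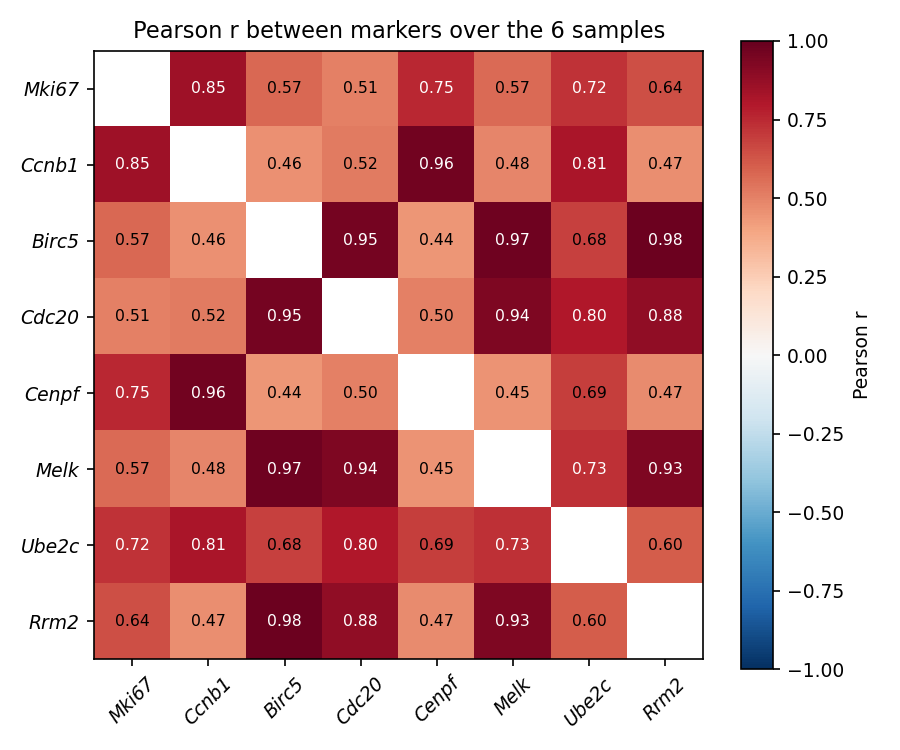
Pearson r over the 6 samples for each pair of the 8 measured markers (both axes), coloured from -1 to 1. All 28 pairs are positive, from 0.44 to 0.98, and high values join Birc5, Cdc20, Melk and Rrm2. Ccnb1 was at background in every sample, so its row and column are shown for completeness only.

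The other tested genes were ranked by Pearson r to the mean of the 6 tested markers, each centred and scaled over the 6 samples. These r values describe 6 samples, share each sample's factor and carry no test. Among the 5 highest were Cep55 (r = 0.98), Anln (0.93), the anti-apoptotic gene Bcl2 (0.92) and Ptcd2, which acts in mitochondrial RNA processing (0.90). Cep55 had log2 levels of 5.35, 5.07 and 5.81 in WT replicates 1, 4 and 6 and 5.71, 4.13 and 5.95 in Atg5BECKO replicates 2, 3 and 5, again with Atg5BECKO replicate 3 lowest. Of the 14 listed mitosis and replication genes tested outside the markers, 13 had a positive r, beside 56.3% of the 373 other tested genes, and their median was 0.82 beside 0.13. The exception was Cdk2 at -0.49, and E2f3 was at 0.34. The 3 lowest of all were the glucose transporter Slc2a1 (r = -0.97), the endothelial receptor Tie1 (-0.96) and the integrin subunit Itgb3 (-0.95). Slc2a1 had log2 levels of 8.58, 8.99 and 8.27 in WT replicates 1, 4 and 6 and 8.44, 9.53 and 8.42 in Atg5BECKO replicates 2, 3 and 5, so it was highest in the sample where the markers were lowest. The cell cycle inhibitor Cdkn1a, chosen after its values were seen, had an r of -0.79. Its log2 level was highest in Atg5BECKO replicate 3, as in 31.9% of all tested genes, at 10.16 against 8.32 to 9.04 in the other 5. All 3 Atg5BECKO samples lay above every WT sample for Cdkn1a, with a lowest Atg5BECKO level of 8.97 and a highest WT level of 8.93. Of all tested genes, 27.7% separated the groups without overlap in either direction. Its log2 fold change was 0.71 (limma adjusted p = 0.371). Related inhibitors went both ways, with an r of 0.26 for Cdkn1c and -0.78 for Cdkn2b. Their log2 fold changes were 0.70 for Cdkn1c (limma adjusted p = 0.305) and -0.20 for Cdkn2b (limma adjusted p = 0.818).

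**Figure D5:**
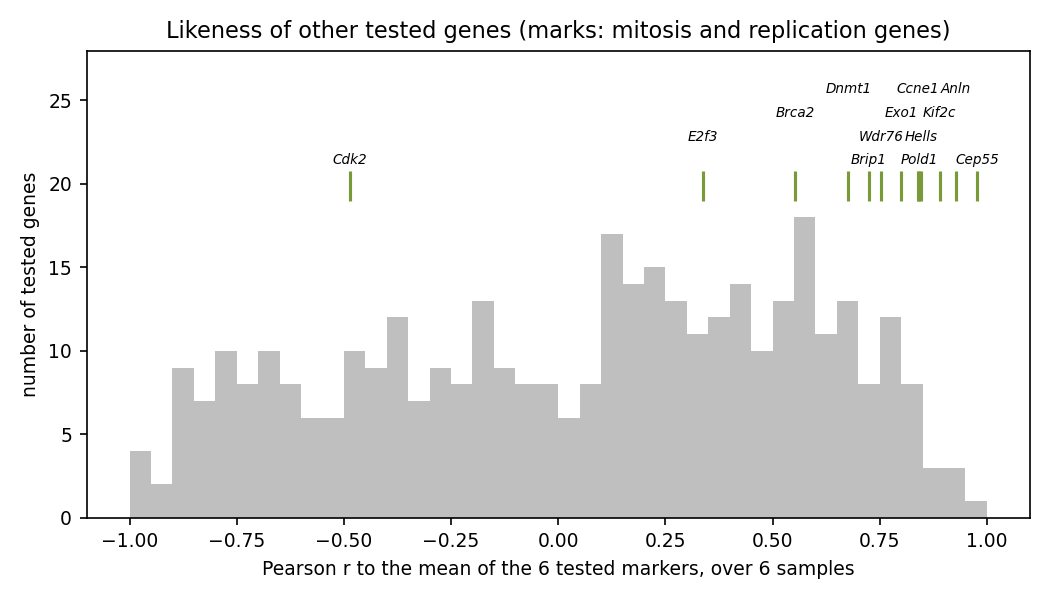
Number of other tested genes (y axis) by Pearson r to the mean of the 6 tested markers over the 6 samples (x axis), with 13 mitosis and replication genes marked. Most marks lie at the right end of the plot, with Cep55 at 0.98, and Cdk2 at -0.49 is the only one below 0.

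Transcripts of other cells in the tumor summed to far less than the endothelial genes, with some above the filter, and tumor cells also divide. Both melanocyte lineage markers were on the panel and 1, Mlana, was above the filter. Their summed normalized count was 36.9 to 85.1 in WT and 32.9 to 53.2 in Atg5BECKO samples. Mlana had log2 levels of 6.04, 4.63 and 4.86 in WT replicates 1, 4 and 6 and 5.28, 4.74 and 5.32 in Atg5BECKO replicates 2, 3 and 5, and its r to the marker mean was 0.27. Its highest value was in WT replicate 1. Sox10, under the filter, ran from 3.59 to 4.54 in WT, close to the medians of the low-signal genes there (3.35 to 4.54). In Atg5BECKO replicates 2, 3 and 5 it was at 3.85, 2.62 and 3.73, below those medians (4.10, 3.85 and 4.09), so it is not read as detected. Of 25 leukocyte markers 4 were above the filter, and Ptprc, which encodes CD45, stayed under it at 3.35 to 5.66. Their summed normalized count was 564, 303 and 821 in WT replicates 1, 4 and 6. In Atg5BECKO replicates 2, 3 and 5 it was 624, 476 and 629. It was thus higher in the samples with a positive mean deviation of the proliferation markers than in the others. The median of the low-signal genes was likewise lowest in WT replicate 4 (3.35) and highest in WT replicate 6 (4.54). Of 10 fibroblast and mural cell markers 4 were above the filter and 3 of these were lower in Atg5BECKO TECs past the study's thresholds, with a summed normalized count of 739 to 1252 in WT and 562 to 867 in Atg5BECKO samples. The r to the marker mean was 0.70 for Csf1r, 0.68 for Ms4a1, 0.63 for C1qb and 0.57 for Ncr1, the 4 leukocyte markers tested. The median over all other tested genes was 0.13. For the 4 fibroblast and mural genes tested, r ran from -0.07 (Thy1) to 0.26 (Adam12). Endothelial identity genes ran from -0.96 (Tie1) to 0.69 (Aplnr), with Pecam1 at -0.89 and Cdh5 at -0.43. The endothelial sum was highest in Atg5BECKO replicate 3, at 42629. The part of other cell types in the levels of the proliferation markers was not tested.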

How the data were processed

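TEC RNA (10 ng) was hybridized to barcoded nCounter probes (NanoString), whose molecules are counted directly with no amplification step. The authors normalized the counts in nSolver 4.0 (advanced analysis) and deposited log2 values with 1 factor per sample and no background subtraction. The panel named in the methods and the genes of the table do not match fully, and this was not resolved. Each linear value was divided by the smallest one of its sample (in Atg5BECKO replicate 5, whose smallest value stood for 3 counts, by that of 1 count), and 100% of quotients came out whole within 0.01. Their exact Poisson 95% intervals cover counting error only.

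The 379 genes that the study kept were fitted with limma 3.58.1 (lmFit, eBayes) in R 4.3.3 over all 6 samples, with Benjamini-Hochberg adjustment. Ccnb1 and Melk were fitted only over all 750 genes. The fit and the exact tests (scipy 1.17.1) were tested on simulated data. Figures used matplotlib 3.10.9. The markers and gene lists were chosen with earlier results of these data known. Genes named are the markers, up to 6 of each mitosis or replication list by smallest p, the 5 most and 3 least like the marker mean, G1 genes past the thresholds, and Mlana, Sox10 and Ptprc. Cdkn1a was added. One result chosen in this way is left out. The authors' own fold changes and p-values were not used.

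The alternatives tried were to fit all 750 genes or those with a mean log2 of 6 or more, to centre samples on their medians, to normalize by quantiles or to endothelial genes, to use limma with a trend, robust limma, or the methods' t-test, to add a pseudocount of 10, to subtract the low-signal median with a floor of 1, to run voom on the recovered counts, and to leave out each sample.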

Additional observations from a re-analysis of the deposited data

How the results depend on the processing

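No paired analysis was done, because the labels number the 6 samples in 1 series and give no pairing of WT with Atg5BECKO samples. The count of tested markers past the thresholds was 0 under all 11 alternatives that kept the 6 samples (8 markers without a filter, 4 with a mean log2 of at least 6) and 0 to 1 when a sample was left out. At an adjusted p under 0.05 it was 0 throughout. Cenpf turned to -0.31 with median centring, -0.25 with quantile normalization and -0.047 with scaling to endothelial genes, and these scalings also lowered the median of all tested genes from 0.24 to -0.14, -0.05 and 0.13. Leaving out 1 sample gave log2 fold changes of 0.26 to 1.11 for Mki67, -0.38 to 0.13 for Birc5, -0.41 to 0.45 for Cenpf, -0.23 to 0.20 for Ube2c, -0.40 to 0.32 for Rrm2 and -0.41 to -0.0019 for Cdc20, so the sign of Birc5, Cenpf, Ube2c and Rrm2 rests on single samples, and the difference of Cdc20 was gone without Atg5BECKO replicate 3. Mki67 stayed positive under all 17 alternatives. The median of the markers was -0.48 to -0.05 under the alternatives and -0.26 to 0.20 without 1 sample (0.05 without WT replicate 6). The median r of the tested markers was 0.53 to 0.75 and, without 1 sample, 0.66 to 0.75. Over all tested genes, 0 had an adjusted p under 0.05, against 20 with voom, 18 without WT replicate 6 and 1 after background subtraction. Of the genes past the thresholds, 93.2% were higher in Atg5BECKO TECs, 56.7% after centring and 70.0% after quantile normalization. Ccnb1 and Melk were under the low-signal filter and have only the fit over all genes of the table.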
